A study of Mus musculus with 2 samples.

Results

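Amino acid transporters are membrane proteins that move amino acids, and in some families related molecules such as taurine, creatine and monoamines, across the cell surface or the lysosome membrane. The genes described here are those of 7 solute carrier (Slc) families, Slc1, Slc3, Slc6, Slc7, Slc36, Slc38 and Slc43, taken by their symbols. The choice was made with earlier results of these data known. These transporters are 61 of the 22740 genes in the expression table: 7 Slc1 genes, 2 Slc3 genes, 19 Slc6 genes, 15 Slc7 genes, 4 Slc36 genes, 11 Slc38 genes and 3 Slc43 genes. RNA was sequenced from the whole uterus of 2 C57BL/6 mice on day 4 of pregnancy, with 1 library per animal, titled WT1 and WT2 and called uterus 1 and uterus 2 here. Neither a treatment nor an altered gene is named in the labels. Both animals form 1 group, so the data give the level of each transporter and how far 2 animals lay apart.

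Transporters differ in what drives them. Sodium-coupled carriers such as Slc1, Slc6 and Slc38 can concentrate their substrates in the cell. Exchangers such as most Slc7 light chains trade 1 amino acid for another, and some Slc36 carriers move amino acids with protons. Several Slc7 proteins reach the cell surface only when bound to an Slc3 heavy chain. In early pregnancy the free blastocyst lives on uterine fluid, which holds amino acids, and leucine and arginine are known signals to its mTOR pathway. When amino acids run short, cells use the factor ATF4, which binds amino acid response elements near transporter genes.

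Values are the authors' RPKM, reads scaled to transcript length and library size, so levels of different genes can be set side by side. The reads behind them were recovered and summed to 3912828 in uterus 1 and 4347434 in uterus 2, which makes these shallow libraries. The 61 transporters together held 8298 and 8457 of those reads. The labelled tissue was checked by marker genes. All 6 uterine stroma, 5 smooth muscle, 5 epithelium and 4 endothelium markers, 3 of 4 gland markers and 4 of 5 leukocyte markers reached 1 RPKM in both uteri. So did 6 of 7 mast cell and platelet, 3 of 8 nerve and glia and 2 of 5 ovary and oviduct markers, and none of 4 embryo, 3 fat or 2 liver markers. In whole tissue, fewer cells of a type and less RNA per cell cannot be told apart.

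Promoter sequences are shown first for the members that hold the core of the amino acid response element, because this element ties transporter genes to the amino acid supply. RefSeq promoter windows (build GRCm38.p6, 250 bases before to 50 after the start) were matched for 43 of the 61 members, in 64 windows. The core TGATGNAA, searched on both strands, stood in windows of 3 members, Slc7a11, Slc1a4 and Slc7a7, in 4 of the 64 windows (6.25%), against 3.97% of all 32851 windows. The strict form TTGCATCA, which is contained in the core, stood in the same 4 windows, against 0.895% of all windows. Capitals mark the matches in the following stretches, which are written 5′ to 3′ on the strand of the gene.
Slc7a11, chr3:50443614-50443863, minus strand: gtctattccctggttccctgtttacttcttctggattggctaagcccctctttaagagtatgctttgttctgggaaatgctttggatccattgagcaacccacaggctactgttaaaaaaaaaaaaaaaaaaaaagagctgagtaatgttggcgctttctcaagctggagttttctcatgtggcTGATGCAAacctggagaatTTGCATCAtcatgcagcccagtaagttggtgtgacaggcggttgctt
Slc1a4, chr11:20332694-20332757, minus strand: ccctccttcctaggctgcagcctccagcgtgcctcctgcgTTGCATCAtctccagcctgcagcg
Slc7a7, chr14:54417925-54417985, minus strand: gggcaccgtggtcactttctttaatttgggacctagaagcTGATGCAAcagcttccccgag

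Slc7a11 carried a pair of matches in opposite orientation, beginning 66 and 47 bases before its start site. In Slc1a4 the match began 4 bases before the start site. In Slc7a7 the match shown began 1 base before a start site and lies in 2 overlapping windows of that gene, 1 of which holds a further copy of the core, 141 bases before its start. The palindromic element of progesterone and glucocorticoid receptors, searched on both strands, had 1 match, in Slc38a11 (GAACAGGTTGTAC, on the strand of the gene), against 0.475% of all windows, and the palindromic oestrogen response element had none. A match is a description of the letters and not a site of binding.

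Of the 61 transporters, 36 reached 1 RPKM in both uteri. That is 59.0%, beside 58.4% of all genes, so the transporters were detected about as often as genes in general. At 10 RPKM or more in both uteri there were 14 transporters (23.0%), beside 30.4% of all genes. A further 8 (13.1%) were listed at 0 in both, beside 23.4% of all genes.

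**Figure D1:**
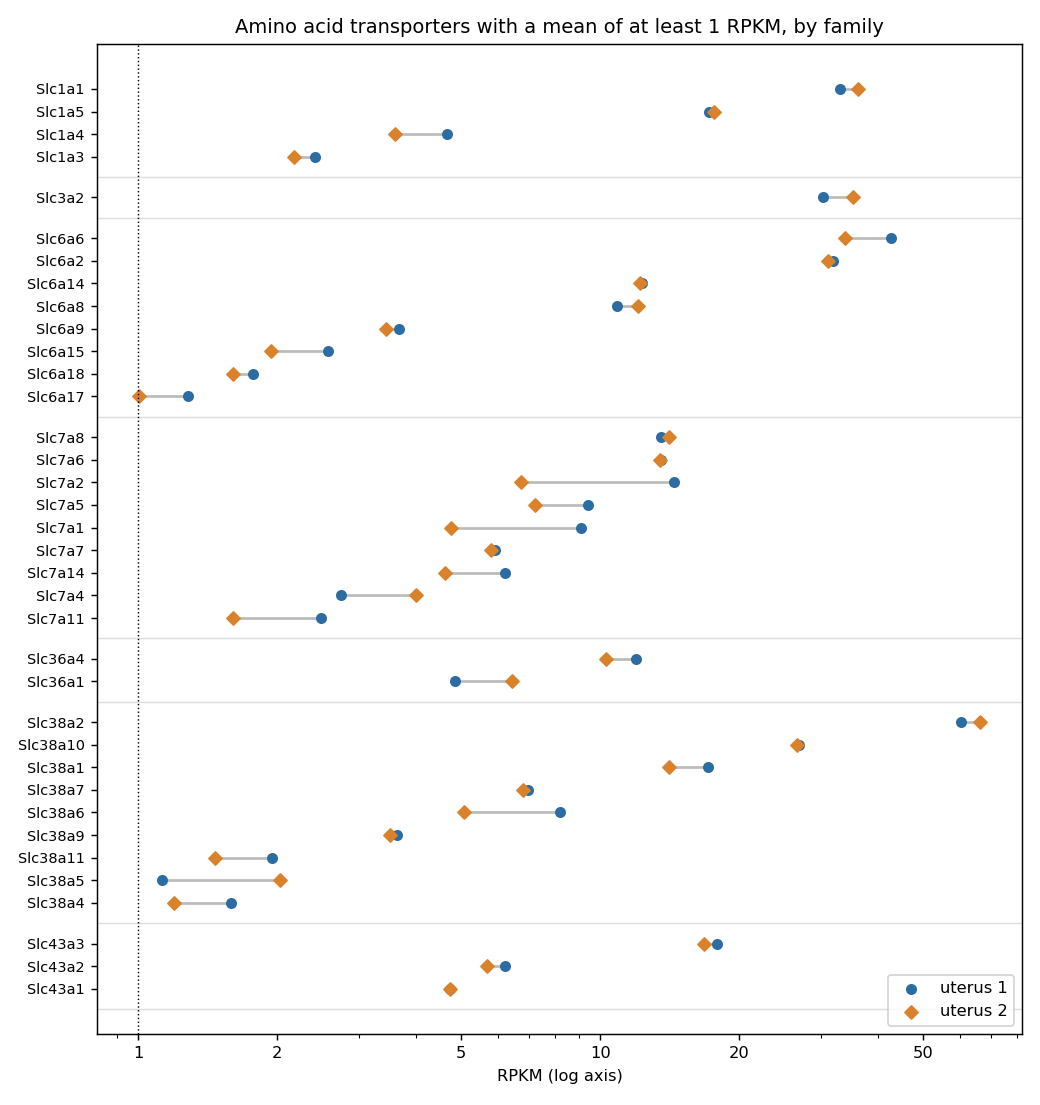
RPKM (log axis) of the 36 transporters whose mean reached 1 RPKM, grouped by family. Circles are uterus 1, diamonds uterus 2, grey lines join the 2 values of a gene and the dotted line marks 1 RPKM; Slc38a2 lies highest, at 60.3 and 66.6 RPKM, and Slc7a2 and Slc7a1 have the longest lines among genes above 4 RPKM in both uteri.

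The summed signal was uneven. The 6 highest genes by mean, Slc38a2, Slc6a6, Slc1a1, Slc3a2, Slc6a2 and Slc38a10, together held 51.6% of the summed mean RPKM of all 61, 49.9% in uterus 1 and 53.4% in uterus 2. In uterus 1 alone 7 genes were needed to reach 50%. The 6 highest by mean belong to 4 families and differ in substrate: small neutral amino acids, taurine, glutamate, a shared heavy chain, noradrenaline and, for Slc38a10, a less well described carrier. Slc38a2 ranked 874 among all 22740 genes by mean RPKM, Slc6a6 ranked 1677 and Slc1a1 ranked 1905. The order below Slc38a2 is loose: in 27 of the 35 steps between neighbours among the 36 transporters whose mean reached 1 RPKM, the ranges of the 2 uteri overlapped. Slc38a2 lay apart from Slc6a6 below it, whereas Slc6a6, Slc1a1 and Slc3a2 each overlapped with the next.

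By family, Slc38 held 29.0% ± 0.945 (SD, n = 2) of the summed RPKM of the transporters and Slc6 held 23.5% ± 0.850. Slc7 followed with 16.1% ± 1.87 and Slc1 with 13.6% ± 0.729. Slc3, Slc43 and Slc36 held 7.59% ± 0.960, 6.37% ± 0.0486 and 3.85% ± 0.132. Slc38 owed its first place to Slc38a2: without that gene its share was 17.1% and that of Slc6 was 27.5%. Family medians show a different picture, because the Slc6 family is split between a few high genes and many near 0. The median Slc6 gene lay at 0.412 ± 0.0219 RPKM (SD, n = 2), below the medians of Slc1 (2.30 ± 0.170), Slc36 (2.91 ± 0.586), Slc7 (3.37 ± 0.887), Slc38 (3.57 ± 0.0866) and Slc43 (5.96 ± 0.391). Among genes above 0 in both uteri the median was 2.26 RPKM for Slc6, 5.38 RPKM for Slc7 and, resting on 2 genes, 8.40 RPKM for Slc36.

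**Figure D2:**
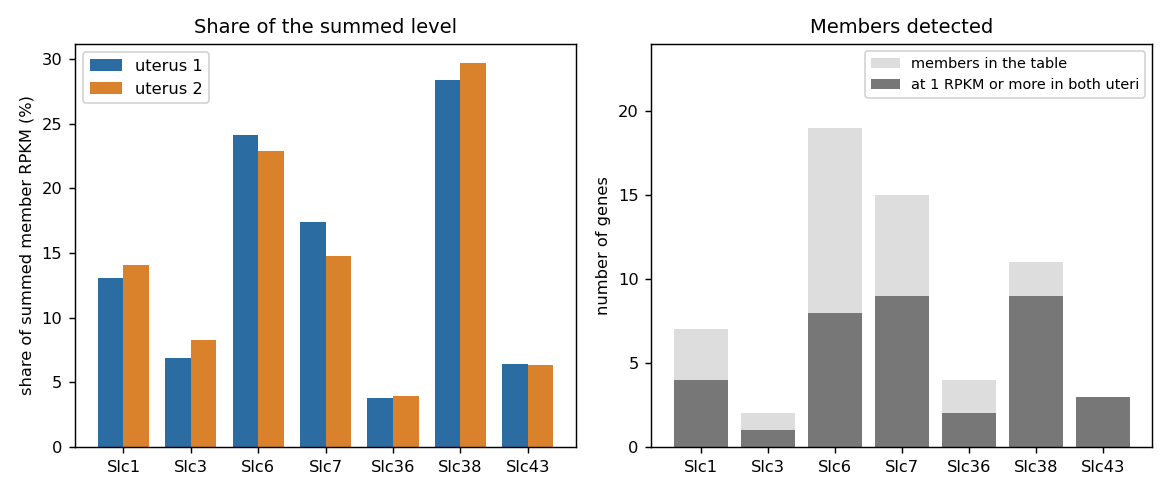
Left, bars give each family's share (%) of the summed RPKM of the 61 transporters in uterus 1 and uterus 2; right, bars give the number of genes in the table (light) and at 1 RPKM or more in both uteri (dark). Slc38 and Slc6 have the tallest bars on the left, and on the right 9 of 11 Slc38 genes but 8 of 19 Slc6 genes are dark.

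The Slc38 family of sodium-coupled neutral amino acid transporters had 9 of 11 genes detected. Slc38a2 (NM_175121, chromosome 15, 96517823 to 96530129 on mm9), the system A carrier of alanine, serine and glutamine, had 60.3 RPKM in uterus 1 and 66.6 in uterus 2, from 1070 and 1311 reads. Slc38a1 (NM_134086, chromosome 15, 96401849 to 96472393), a related carrier with a preference for glutamine, lay at 17.2 and 14.1 RPKM on 552 and 504 reads. Slc38a2 was therefore 3.52 times Slc38a1 in uterus 1 and 4.72 times in uterus 2. Slc38a4, the third system A gene, known as an imprinted gene of the placenta, lay at 1.59 and 1.20 RPKM on 24 and 20 reads. These system A genes lie side by side on 1 strand of chromosome 15, with gaps of 45.4 kb between Slc38a1 and Slc38a2 and 295.1 kb between Slc38a2 and Slc38a4, so neighbours in the genome differed widely in level.

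System N carriers, which move glutamine, histidine and asparagine, were low. Slc38a5 lay at 1.13 and 2.03 RPKM on 8 and 16 reads, and Slc38a3 at 0.191 and 0.172 RPKM on 2 reads in each library. At such depth no difference between the uteri could be seen. Members known from inside the cell were higher. Slc38a10 (NM_001164800, chromosome 11, 119965265 to 120012665) lay at 26.9 and 26.7 RPKM. Slc38a7, which exports glutamine from lysosomes, lay at 6.99 and 6.80 RPKM, and Slc38a9, which reports lysosomal arginine to mTORC1, lay at 3.63 and 3.51 RPKM on 124 and 133 reads. In these 3 genes the uteri differed by under 5%, less than counting error. Slc38a6 lay at 8.20 and 5.08 RPKM on 93 and 64 reads, and Slc38a11 at 1.95 and 1.46 RPKM on 12 and 10 reads. Slc38a8 was listed at 0 in both uteri.

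In the Slc6 family of sodium- and chloride-coupled carriers, 8 of 19 genes were detected. Slc6a6 (NM_009320, chromosome 6, 91634061 to 91709057), the taurine transporter, was highest with 42.6 RPKM in uterus 1 and 33.9 in uterus 2, from 1007 and 889 reads. Slc6a2 (NM_009209, chromosome 8, 95484946 to 95525566), the noradrenaline transporter, lay at 31.95 and 31.1 RPKM on 744 and 805 reads. It was the fifth highest of the 61 transporters, although its substrate is not an amino acid. Slc6a14 (NM_020049, chromosome X, 21292026 to 21319483), which takes up a broad range of neutral and cationic amino acids, lay at 12.3 and 12.2 RPKM on 162 and 178 reads. Slc6a8, the creatine transporter, lay at 10.9 and 12.1 RPKM on 165 and 204 reads.

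The other detected Slc6 genes were low. Slc6a9, the glycine transporter GlyT1, lay at 3.67 and 3.45 RPKM on 46 and 48 reads, and 1429 bases of its annotated exons are shared with the opposite-strand gene Ccdc24 (3.67 and 3.12 RPKM). Slc6a15, a carrier of branched-chain amino acids and proline, lay at 2.58 and 1.93 RPKM. Slc6a18 lay at 1.78 and 1.60 RPKM on 30 reads in each library, and Slc6a17, a synaptic vesicle carrier, at 1.28 and 1.006 RPKM. Whether counting used the strand is not given in the sources used here, so reads from a gene and its antisense partner cannot be told apart. In all, 10 of the 61 transporters share annotated exon bases with another gene.

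Transporters of other neurotransmitters were at or near 0. Slc6a4, the serotonin transporter, lay at 1.04 and 0.428 RPKM on 11 and 5 reads. Slc6a3, the dopamine transporter, had 0 reads and 1 read. Among GABA and betaine carriers, Slc6a11 was listed at 0 in both uteri, Slc6a12 had 3 and 0 reads and Slc6a13 had 2 reads and 1 read. Slc6a5, the second glycine transporter, and Slc6a19, the neutral amino acid carrier of gut and kidney, were listed at 0 in both. Slc6a7, the proline transporter of neurons, had 0 reads and 1 read. The imino acid carriers Slc6a20a (0 reads and 1 read) and Slc6a20b (5 and 7 reads) are neighbouring copies, 4.34 kb apart, so reads could be split between them. A listed 0 is not read as absence here, since Rpl26, a ribosomal protein gene that all cells need, has the same entry.

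Slc6a2 stood beside low nerve and glia markers. The summed level of the 8 markers of that list was 7.55 RPKM in uterus 1 and 8.54 in uterus 2, with none listed at 0 in both. Tubb3 lay at 0.303 and 0.136 RPKM, Sox10 at 0.385 and 0.520 RPKM and Uchl1 at 1.59 and 2.25 RPKM, each far below Slc6a2. The part of nerve fibres in the level of Slc6a2 was not tested. Of 7 monoamine genes, 4 were detected. The monoamine oxidases Maob and Maoa, which break down monoamines, lay at 93.6 and 114.3 RPKM and at 34.1 and 32.2 RPKM. Maob was called higher in uterus 2 (adjusted p 0.00056 in an exact binomial test on recovered reads, log2 ratio 0.29). Th, the first enzyme of noradrenaline synthesis, was listed at 0 in both uteri, Ddc had 1 read and 0 reads, and the vesicular transporter Slc18a2 lay at 2.06 and 3.09 RPKM.

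The Slc1 family had 4 of 7 genes detected. Slc1a1 (NM_009199, chromosome 19, 28909656 to 28988450), a high-affinity glutamate and aspartate transporter, had 33.1 RPKM in uterus 1 and 36.1 in uterus 2, from 471 and 570 reads. The glial glutamate transporters were far lower. Slc1a3 lay at 2.42 and 2.18 RPKM on 39 reads in each library, and Slc1a2 at 0.238 and 0.117 RPKM on 11 and 6 reads. Slc1a6 and Slc1a7, known from cerebellum and retina, lay at 0.999 and 0.787 RPKM and at 0.260 and 0.0782 RPKM. Among glutamate carriers of this family, Slc1a1 thus stood alone above 3 RPKM. The neutral exchangers of the family were Slc1a5 (NM_009201, chromosome 7, 17366695 to 17383623), a glutamine exchanger, at 17.2 and 17.6 RPKM, and Slc1a4, which carries alanine, serine and cysteine, at 4.65 and 3.59 RPKM on 70 and 60 reads.

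Heavy chains of the Slc3 family anchor the exchangers of Slc7. Slc3a2 (NM_008577, chromosome 19, 8781372 to 8788387), the CD98 heavy chain, had 30.3 RPKM in uterus 1 and 35.3 in uterus 2, from 344 and 444 reads. Slc3a1, the heavy chain of the kidney and gut cystine transporter, lay at 0.905 and 0.306 RPKM on 8 and 3 reads, and 608 bases of its exons are shared with Prepl on the opposite strand (9.92 and 10.04 RPKM). Its light chains Slc7a9 and Slc7a13 were listed at 0 in both uteri. The 6 light chains known to pair with Slc3a2 summed to 45.1 and 42.7 RPKM, which is 1.49 and 1.21 times the level of Slc3a2.

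Among those light chains, 2 were nearly equal. Slc7a8 (NM_016972, chromosome 14, 55341052 to 55400723), the exchanger LAT2 of large and small neutral amino acids, lay at 13.5 and 14.1 RPKM on 209 and 242 reads. Slc7a6 (NM_178798, chromosome 8, 108692775 to 108722604), which trades cationic for neutral amino acids, lay at 13.6 and 13.5 RPKM on 194 and 214 reads. Slc7a5, the LAT1 exchanger that brings leucine into growing cells, lay lower, at 9.43 and 7.22 RPKM on 127 and 108 reads. Slc7a7, a relative of Slc7a6, lay at 5.93 and 5.81 RPKM and shares 226 exon bases with Oxa1l on the opposite strand (27.2 and 24.8 RPKM). Slc7a11, the cystine and glutamate exchanger whose promoter window holds the pair of core matches above, lay at 2.49 and 1.60 RPKM on 88 and 63 reads. Slc7a10, an exchanger of small neutral amino acids, had 1 read and 4 reads. The other light-chain-like genes Slc7a12 (listed at 0 in both) and Slc7a15 (0.880 and 0.617 RPKM) were not detected at 1 RPKM.

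The cationic amino acid transporters, which carry arginine, lysine and ornithine without a heavy chain, included the widest fold gap between the animals among transporters whose mean reached 1 RPKM. Rarer genes lay further apart on few reads, such as Slc7a10 and Slc3a1. Slc7a2 (NM_007514, chromosome 8, 41947721 to 42007424) had 14.4 RPKM in uterus 1 and 6.73 in uterus 2, from 435 and 225 reads. Slc7a1 (NM_007513, chromosome 5, 149138986 to 149211480) lay at 9.08 and 4.75 RPKM on 250 and 145 reads. Both were thus higher in uterus 1, by 2.15 and 1.91 times, and their sum was 23.5 RPKM there and 11.5 RPKM in uterus 2. Slc7a3, the third gene of this group, had 2 reads and 1 read. The related genes Slc7a4 (2.74 and 4.00 RPKM on 34 and 55 reads) and Slc7a14 (6.23 and 4.62 RPKM on 211 and 174 reads) did not share 1 direction. Slc7a4 shares 554 exon bases with P2rx6 on the opposite strand (5.67 and 5.81 RPKM), and Slc7a2 shares 635 exon bases with the opposite-strand gene Gm17475, not analysed here.

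The Slc36 family had 2 of 4 genes detected. Slc36a4 (NM_172289, chromosome 9, 15514213 to 15543233), a high-affinity carrier of proline and tryptophan, had 12.0 RPKM in uterus 1 and 10.3 in uterus 2, from 267 and 255 reads. Slc36a1, a lysosomal exporter of small amino acids that bears on mTORC1, lay at 4.85 and 6.46 RPKM on 98 and 145 reads. Slc36a2 (0 and 2 reads) and Slc36a3 (1 read and 0 reads) lie next to Slc36a1 on chromosome 11, 19.3 kb and 6.76 kb from their neighbours, and were near 0 where Slc36a1 was detected.

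All 3 Slc43 genes were detected. Slc43a3 (NM_021398, chromosome 2, 84776803 to 84798666), now known as a carrier of purine nucleobases, was highest with 17.9 RPKM in uterus 1 and 16.8 in uterus 2, from 179 and 186 reads. The amino acid carriers of the family, both sodium-independent and specific for large neutral amino acids, were lower. Slc43a2 lay at 6.24 and 5.69 RPKM and Slc43a1 at 4.73 and 4.74 RPKM.

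The 2 libraries were then compared gene by gene. This asks where the animals lay further apart than counting error and says nothing of a condition. On the log2 scale after a pseudocount of 0.1 RPKM, which understates changes of low genes, 1 of the 36 transporters whose mean reached 1 RPKM was 2-fold apart or more (2.78%), beside 2.6% of all 13647 such genes. It was Slc7a2, with a log2 ratio of uterus 2 over uterus 1 of -1.09. No transporter was 2-fold apart with a pseudocount of 1 RPKM, and 9 were with no filter on low values. No share of all genes is given at these settings, so neither count sets the transporters apart from genes in general. At the main setting, 1.42% of the 13647 genes were at least 2-fold higher in uterus 1 and 1.18% in uterus 2. Higher in uterus 1 by any amount were 26 of the 36 (72.2%), beside 49.9% of all such genes, and their median log2 ratio was -0.09, beside 0.0007 for all genes. The median was -0.04 over transporters whose mean reached 5 RPKM.

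**Figure D3:**
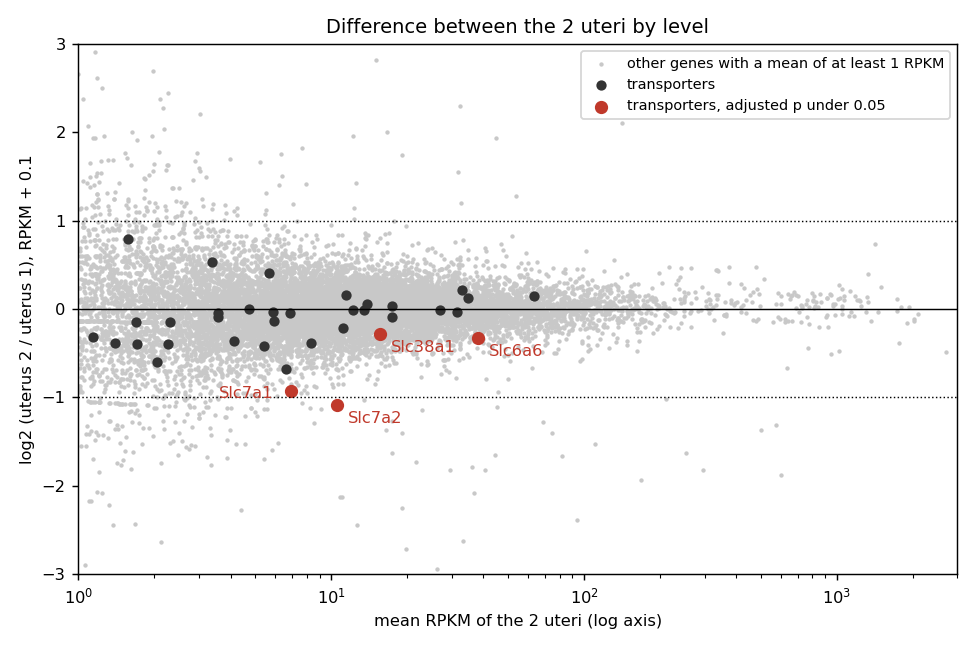
Log2 ratio of uterus 2 over uterus 1 (RPKM + 0.1) against mean RPKM (log axis) for genes whose mean reached 1 RPKM; grey points are other genes, black points transporters, red points transporters with an adjusted p under 0.05 in the exact binomial test, and dotted lines mark 2-fold. Slc7a2 lies below the lower dotted line and Slc7a1 just above it; 31 other genes lie outside the plotted range.

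A two-sided exact binomial test on recovered reads, adjusted by Benjamini-Hochberg over all 15173 genes with at least 6 reads, called 4 of the 42 transporters tested (9.52%). All 4 were higher in uterus 1. The background was 5.05% of all genes called, 2.7% higher in uterus 1 and 2.35% higher in uterus 2, and no transporter was called higher in uterus 2. Slc7a2 had an adjusted p of 6.4e-19 in this exact test and a log2 ratio of reads of -1.10 (95% exact interval -1.34 to -0.87). At its smallest possible reads, 145 and 75, the adjusted p of the exact test was 5.7e-06. For Slc7a1 the exact test gave 4.6e-08 and -0.94 (-1.24 to -0.64), and for Slc6a6 it gave 5.4e-05 and -0.33 (-0.46 to -0.20). Slc38a1 was the weakest call, with an adjusted p of 0.037 in the exact test and a log2 ratio of -0.28 (-0.46 to -0.11). Reads are known up to a whole factor, and this call rests on it: at the smallest possible reads, 184 and 168, the adjusted p of the exact test was 0.418. The test allows for counting error alone. With 1 library per animal, the animal and the library cannot be told apart. Some cell-type markers also lay apart: the 4 gland markers summed to 53.6 RPKM in uterus 1 and 83.0 in uterus 2 with none listed at 0 in both, the 5 epithelium markers to 243.7 and 279.1, the 6 stroma markers to 3762 and 3533, the 5 smooth muscle markers to 1741 and 1737 and the 4 endothelium markers to 134.8 and 131.0. Spink3 made up most of the gland sum (46.4 and 71.8 RPKM) and was the only gland marker called, with an adjusted p of 0.0497 in the exact binomial test. The test called Krt18 alone of the epithelium markers (70.4 and 94.3 RPKM), and Cdh1 and Krt19 had lower values in uterus 2. Of the stroma markers it called Col1a1 (1184 and 850.7 RPKM) and Pgr (77.5 and 66.4 RPKM) higher in uterus 1 and Vim (447.1 and 521.5 RPKM) higher in uterus 2, and it did not call Col3a1, Hoxa10 or Hand2. Of the smooth muscle markers it called Acta2 (652.6 and 591.9 RPKM) higher in uterus 1 and Myh11 (313.7 and 350.1 RPKM) higher in uterus 2. The endothelium marker Kdr (22.9 and 16.6 RPKM) was called higher in uterus 1, as the 4 transporters were, and the other endothelium markers were not called. None of the markers of the other cell types was called. Calls of markers are given at the reads used alone, so how they depend on the whole factor is not shown. The part of these cell types in the 4 calls was not tested.

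Over the 20 transporters with at least 100 reads in both libraries, log2 ratios had an SD of 0.34, the 4 calls included, beside 0.20 for all 7429 such genes. Among transporters not called, Slc38a6 (log2 ratio of reads -0.69, 95% exact interval -1.17 to -0.22), Slc7a11 (-0.63, -1.12 to -0.15), Slc7a14 (-0.43, -0.73 to -0.13) and Slc7a5 (-0.38, -0.77 to -0.0028) had unadjusted intervals wholly below 0. The exact test gave them adjusted p-values of 0.057, 0.117, 0.072 and 0.288. Toward uterus 2, Slc36a1 (0.41, 0.03 to 0.80), Slc3a2 (0.22, 0.01 to 0.42) and Slc38a2 (0.14, 0.02 to 0.26) had intervals above 0 but the exact test gave them adjusted p-values of 0.234, 0.272 and 0.174. At smallest possible reads the interval of Slc3a2 ran from -0.08 to 0.51 and that of Slc38a1 from -0.59 to 0.03. Slc6a14, Slc7a6, Slc38a10 and Slc43a1 had log2 ratios within 0.02 of 0.

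**Figure D4:**
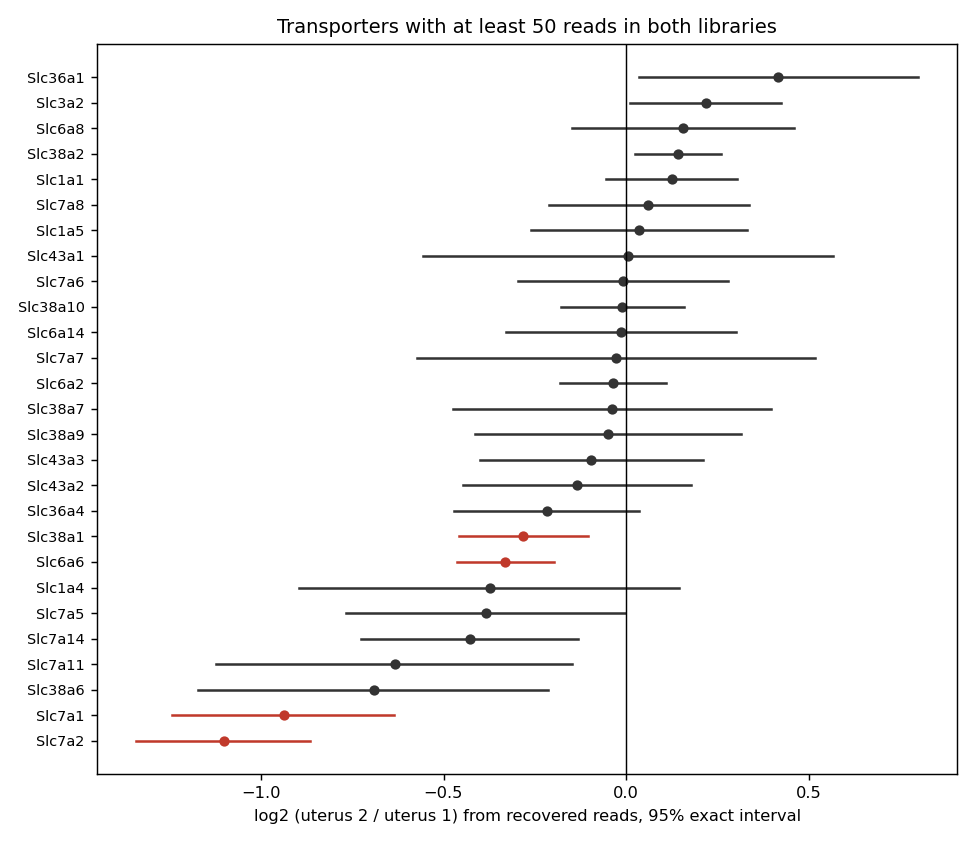
Log2 ratio of uterus 2 over uterus 1 from recovered reads, with 95% exact intervals that cover counting error only and are not adjusted for the number of genes, for the 27 transporters with at least 50 reads in both libraries. Red marks the 4 genes with an adjusted p under 0.05. Of the intervals, 8 lie wholly below 0 and 3 wholly above, against 7 and 2 at smallest possible reads. No such share of all genes is given, so these tallies do not set the transporters apart from genes in general.

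Enzymes and partners of the same substrates were set beside the transporters. Their lists were chosen for known roles, but with earlier results of these data known. Calls of all list genes, Maob above included, are given at the reads used alone. How these calls depend on the whole factor is not shown. Beside the arginine carriers, 7 of 8 arginine enzymes were detected and 0 were called by the exact binomial test. Odc1, which makes the polyamine putrescine, lay at 66.3 and 60.2 RPKM and Asl, which makes arginine, at 54.6 and 64.9 RPKM. Arg2, a mitochondrial arginase, lay at 3.50 and 7.46 RPKM on 19 and 45 reads (adjusted p 0.0858 in the exact test), and Nos3, the endothelial nitric oxide synthase, lay at 7.40 and 5.47 RPKM.

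Beside the taurine carrier Slc6a6, all 3 taurine enzymes were detected, with Cdo1, which oxidises cysteine, at 50.5 and 57.9 RPKM, Fmo1 at 46.7 and 43.9 RPKM and Csad at 18.8 and 20.1 RPKM. Beside the creatine carrier Slc6a8, all 4 creatine genes were detected. Ckb, the brain-type creatine kinase, lay at 230.5 and 223.8 RPKM, and the creatine-making enzymes Gamt and Gatm at 25.4 and 25.1 RPKM and at 17.6 and 18.04 RPKM. None of these 7 genes was called different between the libraries. By contrast the GABA list, with carriers at or near 0, had Abat, which breaks GABA down, at 22.4 and 22.3 RPKM, but Gad1 and Gad2, which make GABA, at 0 and 0.0727 RPKM and at 0.186 and 0.0418 RPKM.

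Of 8 glutamine and glutamate enzymes, 7 were detected. Glul, glutamine synthetase, was the highest at 220.0 and 257.0 RPKM and was called higher in uterus 2 (log2 ratio 0.22, adjusted p 1.7e-06 in the exact test). Glud1 lay at 73.3 and 69.0 RPKM and Got2 at 66.95 and 64.1 RPKM. Glul thus lay above every glutamine carrier of the 7 families, of which Slc38a2 was highest.

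In the serine, glycine and proline list, 9 of 10 were detected, led by Phgdh at 29.4 and 30.6 RPKM and Aldh18a1, a proline-making enzyme, at 32.4 and 25.1 RPKM. Aldh18a1 was called higher in uterus 1 (adjusted p 0.00984 in the exact test), and Shmt2 lay at 21.7 and 21.8 RPKM. All 5 cystine and glutathione enzymes were detected, none called, with Gclc at 15.1 and 17.2 RPKM, Cbs at 15.2 and 16.5 RPKM and Gclm at 11.3 and 12.8 RPKM, each above the cystine carrier Slc7a11. All 4 branched-chain enzymes were detected, and Bcat1 was called higher in uterus 2 at 26.3 and 32.3 RPKM (adjusted p 0.00065 in the exact test). In the tryptophan list 1 of 4 was detected: Tdo2, which breaks tryptophan down, at 8.15 and 16.6 RPKM on 51 and 115 reads, called higher in uterus 2 (adjusted p 0.00089 in the exact test).

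The response to amino acid shortage and the sensing machinery were also measured. Of 12 stress response genes, 10 were detected and 0 were called different. Atf4 itself lay at 55.3 and 57.2 RPKM, Atf5 at 20.7 and 15.9 RPKM and Asns, asparagine synthetase, at 18.3 and 21.2 RPKM. Trib3 (2 and 12 reads) and Chac1 (1 read and 0 reads), which are strongly induced by ATF4, were below 1 RPKM in at least 1 uterus. All 21 sensing genes in the table were detected, with a median of 19.8 RPKM in uterus 1 and 18.2 in uterus 2. Sesn3, of the sestrin family, was the highest at 50.3 and 51.3 RPKM, Lamtor5 lay at 33.97 and 35.7 RPKM and Lamtor1 at 36.1 and 32.1 RPKM. The 1 sensing gene called was Lars, the leucyl-tRNA synthetase, higher in uterus 1 at 32.8 and 24.7 RPKM (adjusted p 0.00138 in the exact test).

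Carriers outside the 7 families were measured as well. Of 13 other carriers and partners at the plasma membrane, synaptic vesicle and lysosome, 6 were detected. The peptide transporters Slc15a4 and Slc15a2 lay at 11.3 and 11.6 RPKM and at 10.3 and 8.07 RPKM, and Ctns, the lysosomal cystine exporter, at 5.89 and 8.98 RPKM. Slc17a6, Slc32a1 and Tmem27, the renal partner of Slc6a18 and Slc6a19, were listed at 0 in both uteri. Of 10 mitochondrial carriers, 9 were detected, led by Slc25a39 at 58.1 and 59.7 RPKM, Slc25a12, an aspartate and glutamate carrier, at 15.3 and 15.2 RPKM and Slc25a38 at 11.7 and 10.4 RPKM. None of the 23 was called different between the libraries.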

How the data were processed

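Poly-A purified RNA from 2 whole uteri was sequenced, per the labels' protocols. The authors deposited RPKM values, 1 column per library. TopHat, edgeR and the build mm9 are named in the submitters' processing notes, and strand use, annotation release and versions are not given in the sources used here. Both deposited tables held identical values for all 22740 shared genes. Deposited starts were read as counted from 0 against GENCODE M1 (annotated starts 1 base after for 29 members, at the deposited start for 1).

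In single-exon genes of exactly matching annotation, 100% of 316 and 321 values above 0 were whole multiples of 1 read (tolerance 1e-06), giving scaling totals of 3834174 and 4256101. For each of the 17426 genes above 0, the smallest whole length giving whole reads was found, and its multiple nearest an annotated transcript length was used; for 1205 genes without one the smallest was kept. This choice left 37 of 53 members at their smallest reads. The length used equalled that of an annotated transcript for 13 of the 53 members and for 4162 of the 17426 genes.

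Levels are mean ± SD over 2 animals. No test between groups exists. Python 3.11.15 with scipy 1.17.1 ran the exact binomial test, checked on simulated data. Intervals allow for the error of counting alone; PCR copies of a molecule are not independent. Members with a mean of at least 1 RPKM are named with both values, others by name and reads or range. A member and a list gene are not reported here by name. List genes are named mainly when among the 3 highest, at 0, called or a partner of a member. Not every such gene is named: Bcat1 alone stands for the branched-chain list and Tdo2 alone for the tryptophan list. Members, 14 gene lists and 12 marker lists were chosen with earlier results of these data known.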

Additional observations from a re-analysis of the deposited data

How the results depend on the processing

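Of 64 alternatives run, 49 kept their value within the range set for it and 15 moved. In 34 of the 64, 1 library was left out. Only the median log2 ratio has a sign that could reverse, and it stayed below 0 in each of its alternatives. The other results are counts, levels or shares, which cannot reverse. Detection was 38 and 29 transporters at thresholds of 0.5 and 2 RPKM and 39 on the TPM scale. The single transporter 2-fold apart became 0 with a pseudocount of 1 RPKM and 9 with no filter on low values, with no share of all genes given for either. The median log2 ratio was -0.13 with no filter and -0.0368 at a mean of at least 5 RPKM; the cause was not tested. Leaving out members at 0 raises medians by construction, to 2.26 RPKM for Slc6, 5.38 for Slc7, 8.40 for Slc36 and 4.80 for Slc38. Leaving out Slc38a2 changes shares by construction, to 15.8% for Slc1, 8.88% for Slc3, 27.5% for Slc6, 18.8% for Slc7, 4.50% for Slc36, 17.1% for Slc38 and 7.44% for Slc43. With smallest possible reads the exact binomial test called 3 transporters. With reads scaled to their sum, an alternative chosen after seeing the data, it called 4. The share of all genes called is not given for either alternative. With either library alone 36 or 37 transporters were detected; means of 2 values move under 1 SD by construction. No paired analysis was possible because the libraries form only 1 group. Genes with under 20 reads cannot show any but a very large difference at this depth.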
